A study of Arabidopsis thaliana with 12 samples.

Results

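The LSM1-7 ring of Arabidopsis thaliana is encoded by 10 genes, and their transcript levels were followed through salt treatment in wild-type seedlings and in a decapping mutant. The members were taken by locus identifier: LSM1A (AT1G19120), LSM1B (AT3G14080), LSM2 (AT1G03330), LSM3A (AT1G21190), LSM3B (AT1G76860), LSM4 (AT5G27720), LSM5 (AT5G48870), LSM6A (AT3G59810), LSM6B (AT2G43810) and LSM7 (AT2G03870). All 10 were among the 38088 loci of the expression table, and all 10 were among the 19876 loci that averaged 1 FPKM or more (a read count per library size and per length of transcript) and were tested. The rule that picked them uses no measured value. The reference table carries the same names, with LSM4 listed as EMB1644, LSM5 as SAD1 and LSM7 as EMB2816.

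LSM proteins are small Sm-like proteins that close into a ring around the 3′ end of an RNA. The ring that holds LSM1 works in the cytoplasm, where it binds deadenylated mRNAs and promotes removal of their cap. LSM8 takes the place of LSM1 in a nuclear ring that binds U6 snRNA and acts in splicing, so LSM2 to LSM7 serve both rings. LSM1, LSM3 and LSM6 each have a pair of genes in Arabidopsis, and LSM1A and LSM1B can stand in for each other in development.

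The samples were whole seedlings of the accession Col-0 and of dcp5-1, which carries a mutation of DCP5, the gene of an LSM14-family decapping factor. Seeds were kept at 4 °C for 3 d, and seedlings grew on 1x MS agar at 22 °C under 16 h light and 8 h dark to an age of 5 d. All groups then rested for 30 min in liquid MS medium and received NaCl at 150 mM for either 0 or 60 min, and no group spent 60 min in medium without NaCl, so salt and time in fresh medium cannot be told apart. Each of the 4 groups had 3 libraries, 12 in all. The labels do not say that replicates came from separate cultures, so p-values cover only the variation among these libraries, part or all of it possibly technical. Since whole seedlings were sampled, fewer cells of a type and less RNA per cell cannot be told apart.

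DCP5, the mutated gene, lay between 48.5 and 52.1 FPKM in Col-0 and between 12.96 and 13.2 FPKM in dcp5-1 at 0 min, and its 3 mutant libraries were below the 3 wild-type libraries at 60 min as well. The library scales recovered from the values stand for 14590000 to 20941000 reads, and the 10 LSM genes rested on about 235 to 1894 reads per library each. Summed shoot markers (LHCB1.2, RBCS2B and GUN5) were at 14836 to 17381 FPKM in Col-0 at 0 min, 7822 to 9118 in dcp5-1 at 0 min, 4106 to 4994 in Col-0 at 60 min and 4159 to 4462 in dcp5-1 at 60 min. Summed root markers (PYK10, COBL9, WER and PHT1;1) were at 1647 to 1916, 2152 to 2214, 1266 to 1308 and 2058 to 2103 FPKM in the same order of groups. PYK10 and RBCS2B made up most of these sums, and other markers went against them. GUN5 was 2.74-fold higher after salt in Col-0 and 3.54-fold in dcp5-1 (limma, called higher in both), while LHCB1.2 and RBCS2B were called lower. In dcp5-1 against Col-0 at 0 min PYK10 was called higher and WER and PHT1;1 lower (ratios 1.25, 0.72 and 0.83), and at 60 min PYK10 and PHT1;1 were called higher and WER lower (1.62, 1.22 and 0.46). COBL9, whose mean was too low to be tested, had ratios of 0.49 and 0.50. None of these 7 markers was at 0 in a library. Their part in the LSM results was not tested.

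The paralogue pairs are shown first, because the comparisons between them rest on reads that tell one copy from the other. Each line gives coding positions 1 to 120 from the start codon, read from the TAIR10.1 genome with the RefSeq annotation, in lower case with capitals at the bases that differ from the paralogue.
LSM1A: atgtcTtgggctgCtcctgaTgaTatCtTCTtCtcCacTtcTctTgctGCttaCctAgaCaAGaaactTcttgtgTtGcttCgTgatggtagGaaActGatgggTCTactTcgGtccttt
LSM1B: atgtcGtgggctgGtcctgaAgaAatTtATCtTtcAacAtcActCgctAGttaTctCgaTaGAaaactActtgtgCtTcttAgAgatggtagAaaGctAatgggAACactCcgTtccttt
LSM3A: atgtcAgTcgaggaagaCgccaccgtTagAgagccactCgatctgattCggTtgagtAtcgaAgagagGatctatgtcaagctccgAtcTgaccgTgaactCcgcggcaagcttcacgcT
LSM3B: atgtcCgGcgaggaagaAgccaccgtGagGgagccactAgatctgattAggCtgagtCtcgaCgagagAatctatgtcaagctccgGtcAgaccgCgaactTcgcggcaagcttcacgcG
LSM6A: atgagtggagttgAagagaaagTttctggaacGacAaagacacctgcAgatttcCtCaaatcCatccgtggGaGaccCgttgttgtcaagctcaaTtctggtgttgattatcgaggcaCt
LSM6B: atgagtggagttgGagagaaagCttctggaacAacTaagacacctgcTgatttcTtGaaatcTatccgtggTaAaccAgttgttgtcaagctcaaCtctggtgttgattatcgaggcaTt
LSM1A and LSM1B matched at 74.7% of 387 aligned coding bases, and their longest identical run was 14 nt. LSM3A and LSM3B matched at 87.1% of 294 bases with a longest run of 41 nt, and LSM6A and LSM6B at 86.2% of 276 bases with a longest run of 30 nt. How the authors' counting treated reads inside such runs is not given in the sources used here, so values of LSM3 and LSM6 paralogues are less certain than those of LSM1.

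The genes are small. Their longest annotated transcripts ran from 520 nt (LSM5) to 990 nt (LSM1B), with a median of 771 nt against 1661 nt over all loci tested. Each coding region is only 267 to 390 bases long, spread over 3 to 8 exons. In TAIR10.1, LSM1A lies on chromosome 1 from 6608115 to 6609369, LSM1B on chromosome 3 from 4667308 to 4669194, LSM3B on chromosome 1 from 28854414 to 28855750 and LSM6B on chromosome 2 from 18149197 to 18151295. The strand setting of the counting is not given in the sources used here, and some members overlap a gene on the opposite strand. LSM3B shares 86 bases with AT1G76850, which had a mean of 8.39 FPKM in Col-0 at 0 min and 20.5 at 60 min, and LSM5 shares 160 bases with AT5G48880, at 4.94 and 7.28 FPKM. LSM1A shares 45 bases with AT1G19130, at 32.0 and 24.1 FPKM, and 194 bases with the antisense gene AT1G05463, which was listed at 0 in every library.

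Levels differed widely between members before salt, and the order was not that of the ring positions. FPKM is scaled to transcript length, and the values of long genes fit lengths shortened by 244 to 272 nt, a step that would weigh most on the shortest transcripts, so the order given here is that of the deposited scale. In Col-0 at 0 min LSM3B was highest at 191 ± 22.2 FPKM (mean ± SD, n = 3), followed by LSM6B at 147 ± 27.9, LSM2 at 124 ± 9.22 and LSM5 at 109 ± 9.85. LSM4 came next at 82.9 ± 7.38 FPKM, then LSM3A at 64.4 ± 2.49, LSM7 at 57.8 ± 4.72, LSM6A at 51.3 ± 4.68, LSM1A at 42.8 ± 3.77 and LSM1B at 24.2 ± 1.60. Both LSM1 genes, which give the ring its cytoplasmic role, were thus the lowest of the 10. Among neighbours in this order the libraries overlapped for LSM6B and LSM2, LSM2 and LSM5, LSM3A and LSM7, and LSM7 and LSM6A. The other neighbours did not overlap, although LSM3B and LSM6B nearly touched. After 60 min in Col-0 the order had changed: LSM5 (82.6 ± 5.88 FPKM) and LSM4 (80.6 ± 1.53) were highest, overlapping each other, and LSM1A (27.0 ± 3.78) and LSM1B (24.6 ± 2.25) were lowest and overlapped too.

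**Figure D1:**
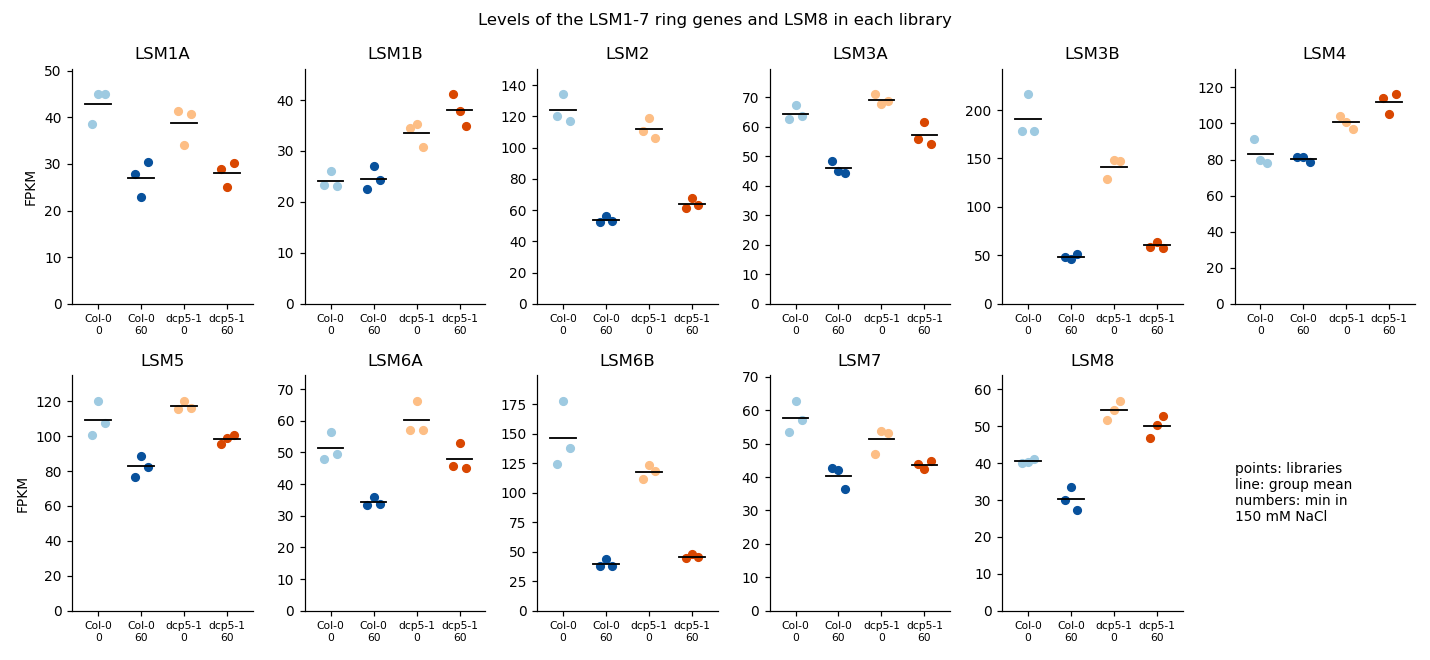
FPKM of the 10 LSM1-7 genes and of LSM8 in each of the 12 libraries (points; line, mean of 3 libraries; the vertical axis starts at 0 and differs between genes). LSM3B, LSM6B and LSM2 were far lower at 60 min in both genotypes, while LSM1B, LSM4 and LSM8 were separated by genotype.

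LSM2, LSM3B and LSM6B had the largest falls under salt, and LSM1B and LSM4 had no call. In Col-0, 8 of the 10 LSM1-7 genes were called lower after 60 min in NaCl and 0 higher, with a median log2 change of -0.53 against 0.014 over all loci tested (limma on log2(FPKM + 1), Benjamini-Hochberg adjusted p below 0.05). In the same comparison 35.7% of all loci were called lower. The LSM transcripts are short, and the 6240 nuclear protein-coding loci with the shortest transcripts had a median of -0.42 with 3802 called lower. Those loci had a median length of 1029 nt against 771 nt for the LSM genes, so they match the LSM genes only in part. When a trend on transcript length was removed from each library, 3 LSM genes remained lower in Col-0 (LSM2, LSM3B and LSM6B) and 4 were called higher, so the direction of the family as a whole depends on that step. On that scale 7051 of the 19876 loci were called higher and 6233 lower, shares close to those of the 10 genes.

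LSM3B, a subunit shared by the cytoplasmic and the nuclear ring, was at 178.5, 217 and 178.1 FPKM in Col-0 at 0 min and at 48.5, 46.2 and 51.2 at 60 min. In dcp5-1 it was at 129, 148 and 147 FPKM at 0 min and at 58.9, 64.3 and 57.5 at 60 min. Every library at 60 min was far below every library at 0 min, and the mutant lay inside the wild-type pair at both times. LSM3B fell by 1.95 on the log2 scale in Col-0 (SE 0.085, limma with Benjamini-Hochberg adjusted p = 2.29e-09) and by 1.22 in dcp5-1 (SE 0.085, limma adjusted p = 1.59e-07). Over 21 alternative settings the change stayed between -1.995 and -1.19 in Col-0 and between -1.28 and -0.76 in dcp5-1, with limma adjusted p of at most 6.73e-06 and 1.19e-05.

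LSM6B, the more abundant LSM6 gene before salt, was at 124, 178 and 138 FPKM in Col-0 at 0 min and at 37.7, 43.5 and 37.7 at 60 min. In dcp5-1 its libraries were at 112, 123 and 118 FPKM at 0 min and at 44.3, 47.7 and 45.2 at 60 min. The times did not overlap in either genotype, and replicate 2 of Col-0 at 0 min stood above the other libraries of its group. LSM6B fell by 1.85 in Col-0 (SE 0.11, limma with Benjamini-Hochberg adjusted p = 2.80e-08) and by 1.34 in dcp5-1 (SE 0.11, limma adjusted p = 5.65e-07).

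LSM2, a subunit of both rings with a single gene, was at 120, 134 and 117 FPKM in Col-0 at 0 min and at 52.3, 56.2 and 53.0 at 60 min. In dcp5-1 it was at 111, 119 and 106 FPKM at 0 min and at 61.3, 67.7 and 63.2 at 60 min. The mean was 2.30-fold lower after salt in Col-0 and 1.75-fold lower in dcp5-1, with no overlap between the times. LSM2 fell by 1.19 in Col-0 (SE 0.065, limma with Benjamini-Hochberg adjusted p = 1.44e-08) and by 0.79 in dcp5-1 (SE 0.065, limma adjusted p = 5.91e-07). With trends on length, GC content and abundance removed the values were closer to 0, the least being -0.34 in Col-0 and -0.23 in dcp5-1, and the calls of LSM2, LSM3B and LSM6B were kept in all 21 alternative settings in both genotypes. Across the 12 libraries the log2 levels of these 3 genes correlated pairwise at Pearson r = 0.989 to 0.992, a description of libraries that share the same groups.

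The other 5 members called lower in both genotypes moved less and lost the direction or the call with the length trend removed. LSM1A, the LSM1 gene with the higher level in wild type, was at 38.5, 45.0 and 45.0 FPKM in Col-0 at 0 min and at 27.7, 23.0 and 30.4 at 60 min. In dcp5-1 it was at 41.3, 34.1 and 40.7 FPKM at 0 min and at 28.9, 25.1 and 30.1 at 60 min. The times did not overlap in either genotype. Its log2 change was -0.65 in Col-0 (SE 0.11, limma with Benjamini-Hochberg adjusted p = 0.000248) and -0.45 in dcp5-1 (SE 0.11, limma adjusted p = 0.00389), and it lost its call in both with the length trend removed.

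LSM5 (SAD1), whose mutant was isolated for its hypersensitivity to ABA and drought, was at 100.4, 120 and 108 FPKM in Col-0 at 0 min and at 76.8, 88.5 and 82.5 at 60 min. Its changes were -0.40 in Col-0 and -0.25 in dcp5-1 (limma adjusted p = 0.000207 and 0.00566), and they turned to 0.23 and 0.20 with the length trend removed. LSM3A changed by -0.48 and -0.27 (limma adjusted p = 1.11e-05 and 0.0012), and turned to 0.14 and 0.16. LSM6A changed by -0.56 and -0.32 (limma adjusted p = 7.82e-05 and 0.00498), and had no call in either genotype once the length trend was removed. LSM7 changed by -0.51 and -0.23 (limma adjusted p = 0.000106 and 0.0234), and turned to 0.10 and 0.19. The LSM7 call in dcp5-1 was lost without replicate 2 or 3 of dcp5-1 at 0 min or replicate 1 or 2 of dcp5-1 at 60 min (-0.23 to -0.19). The falls of these 4 genes thus hold for the scale as deposited and not for the length-corrected one.

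LSM1B and LSM4 had no salt call in either genotype. LSM1B, the second cytoplasmic subunit gene, was at 23.3, 26.0 and 23.2 FPKM in Col-0 at 0 min and at 22.5, 27.0 and 24.3 at 60 min, with a log2 difference of 0.021 (95% interval -0.16 to 0.20). In dcp5-1 it was at 34.5, 35.3 and 30.7 FPKM at 0 min and at 41.2, 37.9 and 34.9 at 60 min, a difference of 0.18 (-0.0064 to 0.36), and this passed without replicate 3 of dcp5-1 at 60 min (0.23, limma with Benjamini-Hochberg adjusted p = 0.0414). LSM4, which the SKB1 arginine methyltransferase modifies, differed by -0.037 in Col-0 (-0.18 to 0.10) and by 0.15 in dcp5-1 (0.012 to 0.29, limma with Benjamini-Hochberg adjusted p = 0.0534). The LSM4 difference in dcp5-1 passed without any 1 replicate of Col-0 at 0 min (0.15) or without replicate 2 of dcp5-1 at 60 min (0.19). Both genes were called higher under salt in Col-0 with the length trend removed, LSM1B by 0.50 and LSM4 by 0.44. Their level patterns over the 12 libraries correlated with each other at r = 0.895, while LSM1A and LSM1B correlated at -0.245.

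**Figure D2:**
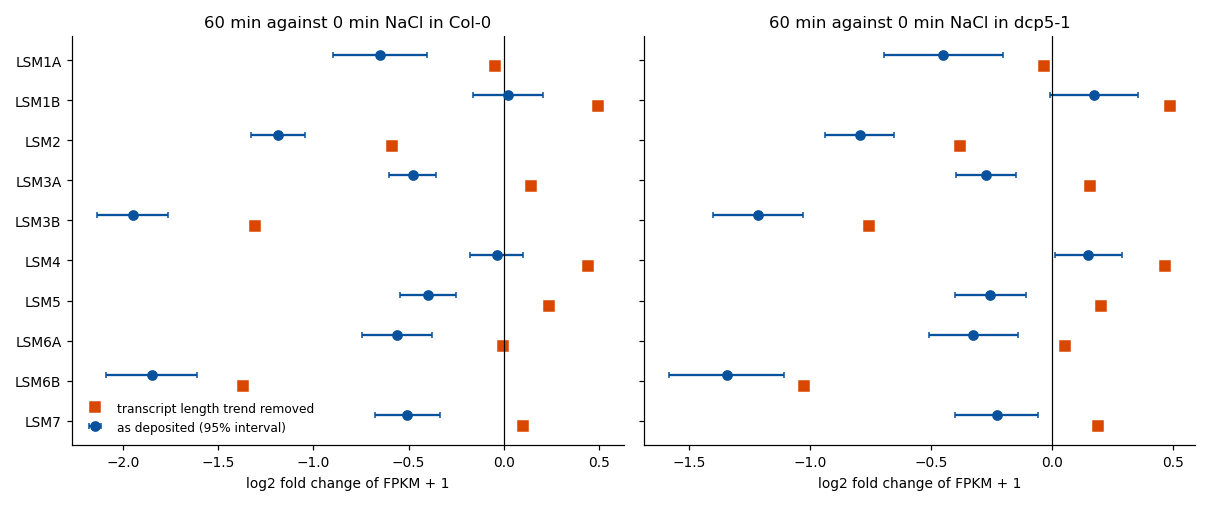
Log2 fold change of FPKM + 1 between 60 and 0 min of NaCl for each LSM1-7 gene in Col-0 and dcp5-1, as deposited (circles, with the 95% interval of limma) and with a transcript length trend removed (squares). LSM2, LSM3B and LSM6B stayed below 0 on both scales, while LSM3A, LSM5 and LSM7 changed side with the length trend removed.

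In dcp5-1 the count of salt calls was the same as in Col-0, with a median change closer to 0. Of the 10 genes 8 were called lower and 0 higher, with a median log2 change of -0.30 against 0.020 over all loci, and 31.6% of all loci were called lower (limma, Benjamini-Hochberg adjusted p below 0.05). With the length trend removed 3 were lower and 5 higher, where 5935 and 6494 of the 19876 loci were. On the deposited scale the difference between the genotypes' salt responses (dcp5-1 minus Col-0) was positive for all 10 members, from 0.15 (LSM5) to 0.73 (LSM3B). Its median was 0.22, against 0.037 over all loci and 0.17 over the 6240 nuclear protein-coding loci with the shortest transcripts. With the length trend removed the median of the 10 genes was 0.044 (all loci -0.0039). With trends on length, GC content and abundance removed it was -0.0093 (all loci -0.0026), so the shared sign was not kept there. As deposited, the difference was called for 3 members, where 16.3% of all loci were called in that direction. These were LSM3B at 0.73 (SE 0.12, limma with Benjamini-Hochberg adjusted p = 0.00189), LSM6B at 0.50 (SE 0.15, limma adjusted p = 0.035) and LSM2 at 0.39 (SE 0.091, limma adjusted p = 0.0106). LSM3B kept this call in all 20 alternatives (0.35 to 0.78), LSM2 in 17 and LSM6B in 8. With quantile normalization or with the length trend removed, LSM3B alone was called, and LSM2 stood at 0.19 and 0.21. For LSM6B the call was lost without replicate 1 or 3 of Col-0 at 60 min, or without any 1 of the 6 dcp5-1 libraries, with values of 0.47 to 0.54. The genotype contrasts at 0 and 60 min and these differences are built from the same 4 group means.

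At 0 min members were called in both directions in the mutant, as were loci over the whole table. Of the 10 genes 3 were called higher in dcp5-1 (LSM1B, LSM4 and LSM6A), where 18.8% of all loci were, and 2 were called lower (LSM3B and LSM6B), where 28.1% of all loci were (limma, Benjamini-Hochberg adjusted p below 0.05). The median difference was -0.022 over the 10 genes and -0.048 over all loci. LSM1B stood at 30.7 to 35.3 FPKM in dcp5-1 against 23.2 to 26.0 in Col-0, without overlap, and was higher by 0.46 on the log2 scale (SE 0.083, limma adjusted p = 0.000947). LSM4 was at 104, 101 and 96.7 FPKM in dcp5-1 and at 91.4, 79.5 and 77.8 in Col-0, again without overlap, and was higher by 0.28 (SE 0.064, limma adjusted p = 0.00388). LSM3B was lower, with a log2 difference of -0.43 (SE 0.085, limma adjusted p = 0.00157). These 3 calls were kept in all 21 alternatives.

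The calls of the LSM6 genes at 0 min were close to the threshold. LSM6A was at 57.2, 66.4 and 57.1 FPKM in dcp5-1 and at 47.8, 56.6 and 49.5 in Col-0, a log2 difference of 0.23 (limma with Benjamini-Hochberg adjusted p = 0.0441). Without any 1 of 9 libraries (replicates 1 and 3 of Col-0 at 0 min, all 3 of Col-0 at 60 min, replicates 1 and 2 of dcp5-1 at 0 min, and 1 and 3 of dcp5-1 at 60 min) that call was lost, with values of 0.16 to 0.26. LSM6B differed by -0.30 (limma adjusted p = 0.0404), and of the 12 libraries left out in turn its call was kept only without replicate 1 of Col-0 at 0 min or replicate 2 of Col-0 at 60 min (lost values -0.34 to -0.15). Leaving out replicate 2 of Col-0 at 0 min, the high library of that group, brought the LSM6B difference to -0.15. LSM1A, LSM2, LSM3A, LSM5 and LSM7 had no call, with differences between -0.17 and 0.10. LSM2 was called (-0.19) without replicate 2 of dcp5-1 at 0 min, and LSM5 was called (0.17) without replicate 2 of Col-0 at 0 min.

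After 60 min in NaCl 7 of the 10 genes were called higher in dcp5-1 than in Col-0 and 0 lower, and 27.1% of all loci were called higher (limma, Benjamini-Hochberg adjusted p below 0.05). The median difference was 0.28, against -0.010 over all loci and 0.13 over the 6240 nuclear protein-coding loci with the shortest transcripts, which are longer than the LSM genes. With the length trend removed the median of the 10 genes was 0.18, and with trends on length, GC content and abundance removed it was 0.069. LSM1B was the most different member, at 34.9 to 41.2 FPKM in dcp5-1 against 22.5 to 27.0 in Col-0, higher by 0.61 on the log2 scale (SE 0.083, limma adjusted p = 9.68e-05). LSM4 was at 114, 105 and 116 FPKM in dcp5-1 and at 81.3, 81.6 and 78.8 in Col-0, higher by 0.47 (SE 0.064, limma adjusted p = 9.65e-05). LSM6A was at 45.6, 53.0 and 45.1 FPKM in dcp5-1 and at 33.5, 36.0 and 33.6 in Col-0, also higher by 0.47 (SE 0.084, limma adjusted p = 0.000679). None of these 3 genes had overlapping libraries.

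LSM3A was higher by 0.31, LSM3B by 0.30, LSM2 by 0.25 and LSM5 by 0.25 at 60 min (limma with Benjamini-Hochberg adjusted p = 0.0008, 0.0102, 0.00722 and 0.00822). LSM1A (0.056, 95% interval -0.19 to 0.30), LSM6B (0.20, -0.035 to 0.44) and LSM7 (0.11, -0.060 to 0.28) had no call. LSM6B was called without replicate 2 of Col-0 at 0 min (0.20, limma adjusted p = 0.0211). With quantile normalization LSM2 (0.15) and LSM5 (0.11) lost their calls. With the length trend alone removed 7 members were called higher, where 5300 of the 19876 loci were. With trends on length, GC content and abundance removed together, 2 of the 7 calls were left, LSM1B at 0.45 and LSM6A at 0.29. There 5116 of the 19876 loci were called higher. LSM1B was called higher in dcp5-1 at both times in all 21 alternatives, from 0.42 to 0.52 at 0 min and from 0.45 to 0.68 at 60 min.

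**Figure D3:**
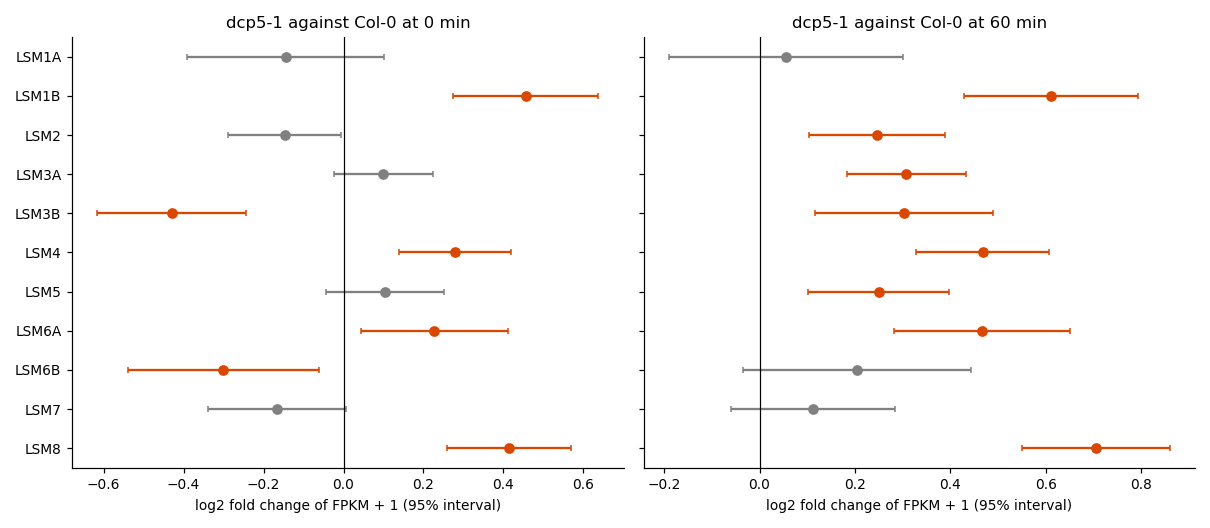
Log2 fold change of FPKM + 1 between dcp5-1 and Col-0 (left, 0 min; right, 60 min) for the 10 LSM1-7 genes and LSM8, with the 95% interval of limma; coloured points passed the Benjamini-Hochberg threshold and grey points did not. LSM1B and LSM8 lay to the right at both times, while LSM3B was to the left at 0 min and to the right at 60 min, where its call was lost once trends on length, GC content and abundance were taken out.

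LSM8, the subunit that marks the nuclear ring, differed between the genotypes at both times. It was at 40.1, 40.4 and 41.1 FPKM in Col-0 and at 51.8, 54.5 and 56.9 in dcp5-1 at 0 min. At 60 min it was at 30.0, 33.6 and 27.4 FPKM in Col-0 and at 46.8, 50.3 and 52.9 in dcp5-1. The genotypes did not overlap at either time. LSM8 was higher in dcp5-1 by 0.41 at 0 min (SE 0.071, limma with Benjamini-Hochberg adjusted p = 0.000617) and by 0.70 at 60 min (SE 0.071, limma adjusted p = 1.09e-05), with ranges of 0.38 to 0.47 and 0.53 to 0.78 over 21 alternatives. Under salt it was called lower in Col-0 (-0.41, limma adjusted p = 0.00025), and it had no call in dcp5-1 (-0.12, 95% interval -0.28 to 0.036). The difference between these responses was not called (0.29, limma adjusted p = 0.0558). With the length trend removed the change was 0.16 without a call in Col-0 and was called higher in dcp5-1 (0.27, limma adjusted p = 0.00551). With trends on length, GC content and abundance removed LSM8 was called higher in both genotypes (0.26 and 0.32).

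The balance between paralogues shifted with salt in each of the 3 pairs, which was examined as the log2 ratio of both copies within a library, a measure that a scale factor per library does not touch. The longest transcripts of the A and B copies are 767 and 990 nt for LSM1, 720 and 590 nt for LSM3, and 856 and 981 nt for LSM6, and no length step was applied to the ratios. LSM1A made up 63.9 ± 1.93% of the summed LSM1 level in Col-0 at 0 min (mean ± SD, n = 3), 52.3 ± 5.45% in Col-0 at 60 min, 53.5 ± 4.04% in dcp5-1 at 0 min and 42.4 ± 3.43% in dcp5-1 at 60 min. LSM1B was therefore the larger part of LSM1 in all 3 mutant libraries at 60 min and in none of the wild-type libraries at 0 min. The ratio of LSM1A to LSM1B was lower by 0.67 log2 units after salt (difference -0.67, exact permutation test within genotype, two-sided p = 0.005, adjusted over 8 tests 0.01). It was lower by 0.60 in dcp5-1 (difference -0.60, exact permutation within time, p = 0.01, adjusted 0.0133). The salt differences were alike in size, -0.69 in Col-0 and -0.64 in dcp5-1, as values without a test.

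The LSM3 and LSM6 pairs moved towards equal shares. The share of LSM3A rose from 25.3 ± 1.42% to 48.6 ± 1.92% of the LSM3 level in Col-0 and from 32.9 ± 2.37% to 48.7 ± 0.22% in dcp5-1. The log2 ratio of LSM3A to LSM3B was higher by 1.22 after salt (exact permutation test, p = 0.005, adjusted over 8 tests 0.01), with 1.48 in Col-0 and 0.95 in dcp5-1. The share of LSM6A rose from 26.1 ± 1.84% to 46.5 ± 1.04% of the LSM6 level in Col-0 and from 33.8 ± 1.22% to 51.1 ± 1.37% in dcp5-1. The log2 ratio of LSM6A to LSM6B was higher by 1.17 after salt (exact permutation test, p = 0.005, adjusted 0.01), the smallest p these 400 permutations allow. In both pairs the copy that was more abundant before salt was the one that fell further.

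Between genotypes the LSM6 ratio was higher by 0.40 in dcp5-1 (exact permutation test, p = 0.005, adjusted over 8 tests 0.01), with 0.53 at 0 min and 0.27 at 60 min. The LSM3 ratio missed the threshold after adjustment (0.27, exact permutation p = 0.05, adjusted 0.0571), with 0.53 at 0 min and 0.0052 at 60 min. It passed without replicate 1 of Col-0 at 60 min (0.29, exact permutation adjusted p = 0.04) or without replicate 2 of that group (0.28, exact permutation adjusted p = 0.0457). Within a single genotype or time, 3 libraries against 3 cannot reach an exact p below 0.10, so those values carry no test.

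**Figure D4:**
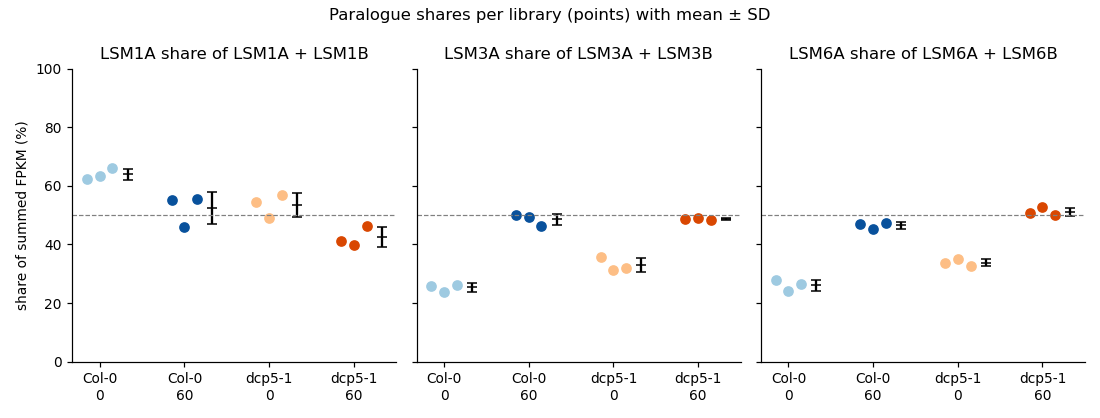
Share of the A paralogue in the summed FPKM of each LSM1, LSM3 and LSM6 pair, per library (points) with mean ± SD of 3 libraries; the dashed line marks equal shares. LSM1A went from 63.9% in Col-0 at 0 min to 42.4% in dcp5-1 at 60 min, while LSM3A and LSM6A rose to between 46.5% and 51.1% at 60 min.

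Summed over paralogues on the deposited scale, the ring positions were far from equal and came closer together after salt. No length step was applied to these sums. LSM3 was the highest position in all 4 groups and LSM7 the lowest. Their means differed 4.42-fold in Col-0 at 0 min (256 and 57.8 FPKM) and 2.34-fold in Col-0 at 60 min (94.6 and 40.4 FPKM). In dcp5-1 the same ratio was 4.10 at 0 min and 2.69 at 60 min. LSM1, the position that defines the cytoplasmic ring, held 67.0 ± 4.72 FPKM in Col-0 at 0 min and 51.6 ± 2.66 at 60 min, and 72.2 ± 3.32 and 66.1 ± 3.66 in dcp5-1. These are transcript levels, and nothing was measured about the proteins or the assembled ring.

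The sum over all 10 genes was 895 ± 80.0 FPKM in Col-0 at 0 min and 478 ± 9.94 at 60 min, and 842 ± 23.9 and 595 ± 7.47 in dcp5-1. These sums hold for the deposited scale. The median log2 salt change of the 10 genes in Col-0 was -0.53 there and 0.048 with the length trend removed. The ratio of LSM1 (both genes) to LSM8 separated the genotypes and not the times. It was 1.54, 1.76 and 1.66 in Col-0 at 0 min, 1.67, 1.48 and 2.00 in Col-0 at 60 min, 1.47, 1.27 and 1.25 in dcp5-1 at 0 min, and 1.4998, 1.25 and 1.23 in dcp5-1 at 60 min. Replicate 1 of dcp5-1 at 60 min overlapped the wild-type range, and the other mutant libraries lay below it. On the log2 scale the ratio was lower in dcp5-1 by 0.34 (difference -0.34, exact permutation test, p = 0.01, adjusted over 8 tests 0.0133), and it differed by 0.021 between the times (exact permutation p = 0.855).

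**Figure D5:**
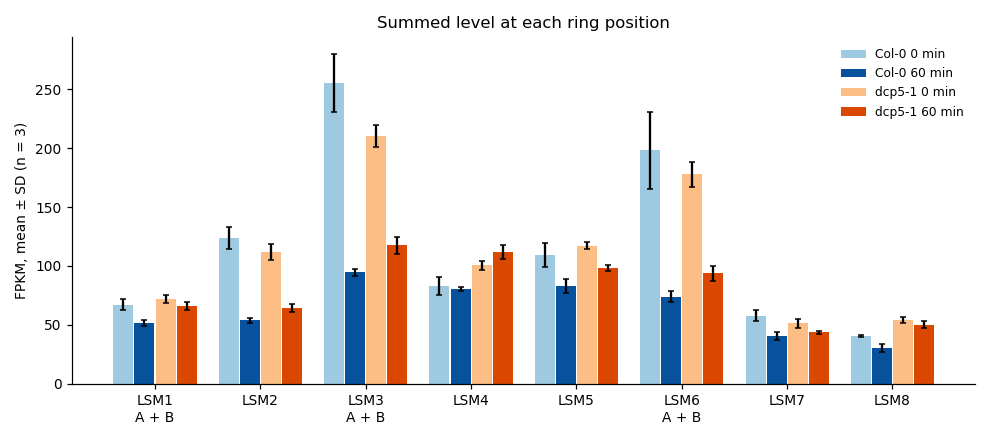
Summed FPKM at each LSM position (mean ± SD of 3 libraries; paralogues added for LSM1, LSM3 and LSM6) and of LSM8 in the 4 groups. LSM3 fell from 256 to 94.6 FPKM in Col-0 while LSM4 was at 82.9 and 80.6, and LSM7 was the lowest of positions 1 to 7 in every group.

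Promoter sequence is shown for the 3 genes that fell most and for LSM3A, the paralogue that fell less than LSM3B. Each line is the 300 bases before the annotated gene start in TAIR10.1 (RefSeq annotation), 5′ to 3′ on the gene's strand. The windows are chr1:7420958-7421257 (minus strand), chr1:28855751-28856050 (minus), chr2:18148897-18149196 (plus) and chr1:819564-819863 (minus). Capitals mark matches to TGGGCC, a site II element common before growth genes, and to ACGTG, the core of ABA response elements.
LSM3A: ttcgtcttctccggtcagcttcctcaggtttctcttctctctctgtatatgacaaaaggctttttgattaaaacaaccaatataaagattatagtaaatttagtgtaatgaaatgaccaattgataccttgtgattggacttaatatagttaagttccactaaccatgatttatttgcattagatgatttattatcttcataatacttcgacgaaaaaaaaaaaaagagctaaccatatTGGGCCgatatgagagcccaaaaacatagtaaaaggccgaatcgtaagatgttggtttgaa
LSM3B: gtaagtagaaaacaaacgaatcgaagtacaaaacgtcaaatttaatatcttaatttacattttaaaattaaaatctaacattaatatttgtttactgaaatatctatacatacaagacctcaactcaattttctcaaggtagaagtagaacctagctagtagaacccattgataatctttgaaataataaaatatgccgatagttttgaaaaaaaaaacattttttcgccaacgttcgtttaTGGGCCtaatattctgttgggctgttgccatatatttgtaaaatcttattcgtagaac
LSM6B: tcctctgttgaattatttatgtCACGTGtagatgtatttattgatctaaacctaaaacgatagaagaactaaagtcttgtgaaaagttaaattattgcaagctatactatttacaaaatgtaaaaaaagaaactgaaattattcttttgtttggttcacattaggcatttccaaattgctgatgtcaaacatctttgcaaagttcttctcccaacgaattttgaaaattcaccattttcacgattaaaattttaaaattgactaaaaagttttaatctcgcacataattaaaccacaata
LSM2: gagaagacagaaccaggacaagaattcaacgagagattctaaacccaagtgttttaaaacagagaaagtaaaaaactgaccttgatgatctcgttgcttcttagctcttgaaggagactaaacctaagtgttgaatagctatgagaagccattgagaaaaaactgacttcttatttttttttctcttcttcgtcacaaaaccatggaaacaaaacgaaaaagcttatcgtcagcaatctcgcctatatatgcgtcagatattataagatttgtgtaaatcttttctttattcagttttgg
Both were searched on both strands, as were the core of a dehydration response element, CCGAC, and a telo box, AACCCTA. Of these, TGGGCC was found in LSM3A at -61 and in LSM3B at -58 from the gene start and in no other member, against 14.6% of 27443 promoters of the same length. ACGTG was found in LSM6B, where both strands of a CACGTG match and overlap, in LSM1B at -230 and in LSM5 at -166, against 25.6% of all promoters. AACCCTA was found in LSM6A at -199 (7.58% of all promoters), and CCGAC in none of the 10 (13.9% of all). LSM2 held none of the 4 motifs, so the 3 genes that fell most had no searched motif in common in these windows. A match is a run of letters and not a site shown to be bound.

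The other genes of decapping rose under salt. A list of 9 partners was taken, holding DCP1, DCP2, VCS, VCR, DCP5-L, XRN4 and 3 loci taken as PAT1 genes (AT1G79090, AT4G14990 and AT3G22270). The reference gives no symbol for these 3 loci. In Col-0 all 9 rose, with a median log2 change of 0.75, and in dcp5-1 all 9 rose, with a median of 0.70, where 36.3% and 35.1% of all loci were called higher (limma, Benjamini-Hochberg adjusted p below 0.05). With the length trend removed 8 of 9 were still called higher in both genotypes, where 7051 (Col-0) and 6494 (dcp5-1) of the 19876 loci were. AT4G14990, a PAT1 locus whose protein family binds the LSM1-7 ring, rose most, from 8.45 ± 1.08 to 23.8 ± 1.28 FPKM in Col-0, a log2 change of 1.40 (limma adjusted p = 2.51e-08). VCS, the decapping scaffold VARICOSE, rose by 1.23 and DCP5-L by 1.04 (limma adjusted p = 1.61e-08 and 1.99e-07). These transcripts are long, with a median of 3361 nt. The 6240 nuclear protein-coding loci with the longest transcripts had a median change of 0.37 in Col-0 with 3957 called higher, and of 0.27 in dcp5-1 with 3506.

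In dcp5-1 the partners were lower than in Col-0 where they were called: 5 of 9 at 0 min and 7 of 9 at 60 min, with 0 higher at either time. The backgrounds were 28.1% and 27.4% of all loci called lower (limma, Benjamini-Hochberg adjusted p below 0.05). With trends on length, GC content and abundance removed these counts were 3 and 3, where 4590 and 4852 of the 19876 loci were lower. On the deposited scale LSM1B, LSM4 and LSM8 were called higher in the mutant at both times. LSM3B (-0.43) and LSM6B (-0.30) were called lower at 0 min, like those partners. With trends on length, GC content and abundance removed LSM4 lost its call at 60 min (0.21). DCP2, the catalytic subunit of decapping, was at 10.7 ± 0.26 FPKM in Col-0 and 7.94 ± 0.24 in dcp5-1 at 0 min, a log2 difference of -0.39 (limma adjusted p = 5.20e-05).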

How the data were processed

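Whole-seedling mRNA was sequenced in 12 libraries, 3 for each of 4 groups assigned from the sample titles. The authors deposited 1 table for 38088 loci, whose values were taken as FPKM from their form (low values step with transcript length and column totals differ), since no unit was given in the sources used here. A last line without values was dropped. All 12 value columns were matched to samples through the labels, and 0 were left over. Bowtie, without a version, and the TAIR10 build are named per the submitters' processing notes. The quantification program, with its annotation, strand setting and handling of reads that match several loci, was not given in the sources used here. FPKM depends on transcript length, so a library difference that follows length moves short genes such as these together.

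FPKM + 1 was taken to the log2 scale, which understates changes of low genes. The 19876 loci that averaged 1 FPKM or more entered limma 3.58.1 in R 4.3.3 with 4 group means, empirical Bayes variances with a mean trend (8 residual and 3.29 prior degrees of freedom) and Benjamini-Hochberg adjustment over all loci tested. Tests were two-sided with a threshold of 0.05. Log2 ratios of paralogues were compared with exact permutation tests (400 permutations within strata), adjusted over 8 tests. Python 3.11.15 with numpy 2.4.6, pandas 2.3.3, matplotlib 3.10.9 and Biopython 1.88 was used for the other steps. Simulated data over 19876 loci held planted changes in the wild-type salt comparison, 100 of 0.5 and 100 of 1 on the log2 scale. The limma step recovered 76% of the former and 99% of the latter, with 14 false calls. In the measured data that comparison called 7223 loci higher and 7092 lower, far more than were planted, so these rates may not carry over.

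Reads were estimated from the FPKM of 10863 long single-transcript genes with 1 scale factor and 1 length correction (244 to 272 nt) per library, and 99.2% to 99.6% of values below 10 reads came within 0.1 of a whole number. No count test was run, since the deposited values are not counts.

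Named genes are the 10 members, DCP5, LSM8, up to 3 called members of each context list with the largest change, and the 3 genes with a symbol and a mean of at least 5 FPKM most correlated with LSM1A and with LSM1B; DCP2 and AT1G76850 and the other overlapping loci were named after their values were seen. The members, lists and tests were chosen with earlier results of these data known. Replicate numbers were not used to pair libraries in the main model. Same-numbered libraries of different groups correlated at -0.104 to 0.180 in their deviations from group means, over 0.1 in 4 of 18 pairs. Differently numbered libraries correlated at -0.164 to 0.147. Between dcp5-1 at 0 and 60 min the same-numbered values were 0.180, 0.080 and 0.109, so these values do not settle whether libraries were paired. Alternatives were another pseudocount, no filter, quantile normalization, trends removed on length or on length, GC content and abundance (splines with 5 degrees of freedom), a replicate block, only the 6 libraries compared, no mean trend, and each library left out in turn.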

Additional observations from a re-analysis of the deposited data

Results flagged for a closer look

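The salt response differed between the genotypes, by a test of the difference itself (the interaction of genotype and salt in limma, Benjamini-Hochberg adjusted p below 0.05), for LSM2 (0.39), LSM3B (0.73) and LSM6B (0.50) on the log2 scale. All 3 differences are dcp5-1 minus Col-0, and in each gene the fall was smaller in the mutant. The difference of LSM6B passed in 8 of 20 alternative settings, that of LSM2 in 17 and that of LSM3B in all 20.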

How the results depend on the processing

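Of the salt responses of the LSM1-7 genes, those of LSM2, LSM3B and LSM6B kept direction and call in all 21 alternatives in both genotypes, and scaling turned others. Values in brackets are those that changed sign, called or not, with LSM8 beside the 10 members. With quantile normalization 1 member was called higher under salt in Col-0 (sign changed for LSM4 0.38, LSM5 0.045), 2 higher and 5 lower in dcp5-1 (LSM8 0.013), 5 higher and 1 lower in the mutant at 0 min, 5 higher at 60 min, and 1 by the interaction. Of all 19876 loci that setting called 7687 higher in Col-0, and 7070 higher and 6061 lower in dcp5-1. It called 4796 higher and 4496 lower at 0 min, 5485 higher at 60 min and 2033 higher by the interaction. With the length trend removed 4 were called higher (LSM1B, LSM3A, LSM4 and LSM5) and 3 lower in Col-0 (sign changed for LSM3A 0.14, LSM4 0.44, LSM5 0.23, LSM7 0.10, LSM8 0.16), 5 higher (LSM1B, LSM3A, LSM4, LSM5 and LSM7) and 3 lower in dcp5-1 (sign changed for LSM3A 0.16, LSM5 0.20, LSM6A 0.056, LSM7 0.19, LSM8 0.27), 5 higher at 0 min, 1 by the interaction, and at 60 min LSM1A was at -0.066 and LSM7 at -0.0091 between genotypes. The all-loci counts were 7051 and 6233 in Col-0, 6494 and 5935 in dcp5-1, 4712 higher at 0 min and 2410 higher by the interaction. With trends on length, GC content and abundance removed 4 were called higher and 3 lower in Col-0 (sign changed for LSM3A 0.16, LSM4 0.61, LSM5 0.45, LSM6A 0.12, LSM7 0.094, LSM8 0.26), 3 higher and 3 lower in dcp5-1 (sign changed for LSM3A 0.078, LSM5 0.26, LSM6A 0.12, LSM7 0.10, LSM8 0.32), 2 higher in the mutant at 60 min (LSM1A -0.16, LSM7 -0.15) and 1 by the interaction. There the all-loci counts were 6883 and 6155 in Col-0, 6336 and 5880 in dcp5-1, 5116 higher at 60 min and 1651 higher by the interaction. The replicate block gave 2 higher in dcp5-1 under salt (LSM1B and LSM4), 3 lower in the mutant at 0 min (LSM2 added, -0.15, limma adjusted p = 0.017), 8 higher at 60 min (LSM6B added, 0.20, limma adjusted p = 0.0421) and 4 by the interaction, and the block with the length trend removed gave 4 higher and 3 lower in Col-0, 5 higher and 3 lower in dcp5-1 and 5 higher at 0 min, with the same single-gene values as the length step alone. For the block alone the all-loci counts in the same order were 6871, 5490, 5368 and 3117. For the block with the length step they were 6967 and 6181, 6423 and 5875, and 4614. The members lower in dcp5-1 at 0 min were 1 with no filter, with only the 6 libraries compared and with no mean trend, and the 6 libraries alone gave 1 higher in dcp5-1 under salt. Of all loci 5634 of 27544, 4549 of 19876 and 5595 of 19876 were lower in those settings. The 6 libraries alone gave 7096 loci higher in dcp5-1 under salt. Leaving out 1 library gave 0 or 1 member higher under salt in dcp5-1 (0 with all libraries, and 6410 to 7185 of all loci). The count lower at 0 min was 2 with all libraries and stayed at 2 in 3 of 12 cases, falling to 1 in the others (4838 to 5582 of all loci). Under salt in Col-0 LSM1B ranged from -0.046 to 0.080 and LSM4 from -0.081 to 0.034. LSM1A between genotypes at 60 min ranged from -0.053 to 0.14. The LSM3 ratio between genotypes ranged from 0.23 to 0.30 and the LSM1 to LSM8 ratio between times from -0.036 to 0.071. In single strata the LSM3 ratio changed by 1.48 in Col-0 and 0.95 in dcp5-1 with salt and by 0.53 and 0.0052 with genotype at 0 and 60 min, the LSM6 ratio by 1.30 and 1.03 and by 0.53 and 0.27, and LSM1 to LSM8 by -0.0063 in dcp5-1. The LSM7 fall in dcp5-1 was kept in 13 of 21 alternatives. Apart from these steps' own construction, the cause was not tested. The lowest depth was 235 reads, for LSM1A in 1 library of Col-0 at 60 min, and in Col-0 at 0 min LSM1B had the fewest, with 272 to 287.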

Other observations

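The Sm core genes, whose proteins form the ring of the spliceosomal snRNPs and are related to the LSM proteins, were read beside the LSM genes in a list of 14. Their transcripts are as short as those of the LSM genes, with a median of 765.5 nt. In Col-0 13 of the 14 were called lower after salt, with a median log2 change of -0.75, and in dcp5-1 12 were, with a median of -0.38, against 35.7% and 31.6% of all loci (limma, Benjamini-Hochberg adjusted p below 0.05). With the length trend removed 8 were lower in Col-0 and 4 in dcp5-1, with 2 and 4 higher. On that scale 6233 and 5935 of the 19876 loci were lower, and 7051 and 6494 were higher. AT2G23930 (SNRNP-G) fell most, from 466 ± 60.1 to 173 ± 11.1 FPKM in Col-0, a log2 change of -1.42 (limma adjusted p = 2.11e-08). In the mutant at 60 min 11 of the 14 were called higher than in Col-0 and 0 lower. There 27.1% of all loci and 2391 of the 6240 nuclear protein-coding loci with the shortest transcripts were higher. With trends on length, GC content and abundance removed 4 were higher and 1 lower, where 5116 and 4852 of the 19876 loci were.

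LSM1A and LSM1B differed in the genes whose pattern was most like theirs over the 12 libraries, among 6281 genes with a symbol and a mean of at least 5 FPKM. Most like LSM1A were PnsL2, SNF7.2 and OCT6, with Pearson r = 0.946, 0.946 and 0.946 (log2 scale). Most like LSM1B were RAB1C, SPPL1 and HCF152, with r = 0.967, 0.963 and 0.962. These values describe libraries that share 4 groups and carry no test. HCF152 was at 7.49 FPKM in Col-0 and 12.0 in dcp5-1 at 0 min, and RAB1C at 148 and 165.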
